A study of Caenorhabditis elegans with 8 samples.

Results

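The genes of the nuclear pore and of nuclear transport were examined by the small RNA reads counted at them in the nematode Caenorhabditis elegans. Members were the genes whose name in the count files is npp, ima, imb or xpo followed by a number, which gave 34 of 20191 counted genes. They comprise 25 nucleoporin genes (npp), 3 genes of importin alpha (ima), 3 of the importin beta family (imb) and 3 exportin genes (xpo). The 8 libraries fall into 4 groups of 2. The zsp-1 mutant, strain YY1683, was fed HT115 bacteria that expressed double-stranded RNA of oma-1 or carried the empty vector L4440, and the wild type, strain N2, was fed the same 2 foods. All animals were grown at 20 °C and taken whole as gravid adults on day 1 by one label, or as young adults by the extraction text. The genotype label spells the mutated gene zap-1 and gives no allele, and the count files name it pid-2. Whether the 2 libraries of a group are separate cultures is not labelled, so the p-values reflect only how these samples differ among themselves, which may be technical.

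Nuclear pores are channels through the nuclear envelope that are built from nucleoporins. Importins carry proteins in through the pore and exportins carry cargo out, with the small GTPase Ran setting the direction. In the germ line of C. elegans, germ granules sit on the outer face of nuclear pores, and messenger RNAs pass through them as they leave the nucleus. Germ granules house the machinery that copies messenger RNA into 22G small interfering RNAs (siRNAs), which are antisense to the gene and are loaded onto Argonaute proteins. ZSP-1 is found in the Z granule, which is part of this structure. The cloning protocol favours such siRNAs, but the counts are not split by strand, length or first base, so they are called small RNA reads below. They do not measure pore protein. In whole animals, fewer cells that make a small RNA and fewer copies per cell cannot be told apart.

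Library totals ranged from 136908 to 340932 reads, so that 1 read was worth 2.93 to 7.30 CPM, the read count scaled to a common library size. CPM values are scaled by TMM, a method that sets a common centre for the libraries, and are divided by exon length in kilobases (kb) where genes are compared with each other. Reads at the mutated gene numbered 2 to 14 in mutant libraries and 57 to 116 in wild-type libraries. The 6 germline markers together had 1662 to 1797 CPM in mutant and 1620.5 to 1994 CPM in wild-type libraries. One of the 6, the germ granule helicase gene glh-1, had 61 and 35 reads on oma-1 RNAi and 99 and 48 on L4440 in the mutant, against 146 and 112 on oma-1 RNAi and 73 and 65 on L4440 in wild type. It was called lower in the mutant on oma-1 RNAi (log2 fold change -0.93, SE 0.32, adjusted p = 0.0465, edgeR) but not in the average over foods (-0.53, SE 0.22, adjusted p = 0.0957, edgeR), where it passed with the replicate block and with scaling by library totals. Its part in the results below was not tested. The 4 muscle markers had 5 reads over all 8 libraries, the 4 intestine markers 10 and the 3 hypodermis markers 1. The 3 neuron markers had 47.3 to 74.2 CPM in mutant and 57.3 to 99.0 CPM in wild-type libraries. Among them snb-1 had 40 reads in the mutant and 42 in wild type, unc-119 had 6 and 17, and rab-3 had 4 and 14. The 4 sperm markers together had 18.6 to 48.4 CPM in mutant and 19.8 to 63.0 CPM in wild-type libraries. 

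Small RNA reads were found at nuclear pore and transport genes throughout. All 34 passed the filter on low counts, against 22.6% of all counted genes (4567 genes), and 33 had reads in every one of the 8 libraries. The exception was npp-26, which passed the filter only through its reads in the mutant. Together the 34 genes held 4812 reads in the mutant and 5439 in wild type. This was 0.460 to 0.630% of reads in mutant libraries and 0.506 to 0.669% in wild-type libraries, and the ranges overlap. Paired by food and replicate number, the share was lower in the mutant in 4 of 4 pairs, at 0.630 against 0.669% and 0.470 against 0.506% on oma-1 RNAi, and 0.567 against 0.628% and 0.460 against 0.589% on L4440. After TMM scaling the summed CPM was lower in the mutant in 3 of the 4 pairs. The lower share is not particular to these genes. With scaling by library totals, the median log2 fold change between genotypes was -0.18 for the members and -0.19 for all tested genes. None of the 34 genes lies on the X chromosome, which carries 13.8% of counted and 4.75% of tested genes. Of the members, 12 lie on chromosome I, 6 on II, 6 on III, 7 on IV and 3 on V.

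**Figure D1:**
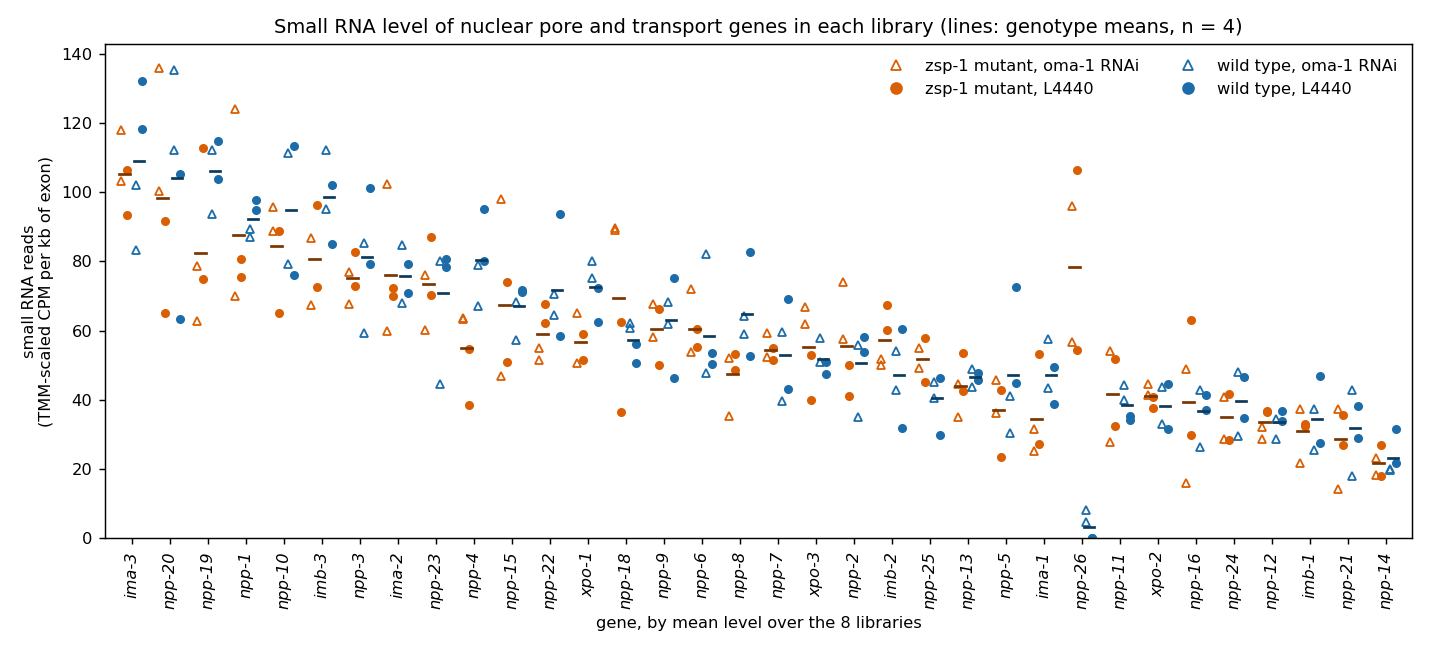
TMM-scaled CPM per kb of exon (y axis) for each of the 34 genes (x axis, by mean level over the 8 libraries). Points are libraries and short lines are genotype means (n = 4). Mutant and wild-type points mix at nearly every gene, and they stand apart most at npp-26, where the mutant mean was 78.3 and the wild-type mean 3.22 CPM per kb.

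The small RNA levels of the members were modest and close together. Leaving npp-26 aside, the mean over the 8 libraries ran from 22.5 to 107 CPM per kb, a 4.76-fold range, with a median over all 34 genes of 54.9. The median over all 4567 tested genes was 59.8 CPM per kb, and the middle 80% of tested genes spanned 24.01 to 287. In the order by level, all 33 pairs of neighbouring genes differed by less than the larger of their SDs across libraries, so the order is loose. Read number grew with exon length (Spearman's rho 0.75 across the 34 genes, which share their libraries), whereas the level per kb did not (rho -0.18). Levels in the mutant and in wild type ranked the genes alike (rho 0.80 across 34 genes).

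The highest level per kb was at ima-3, an importin alpha gene needed in the germ line. It had 308 and 270.2 CPM on oma-1 RNAi and 278 and 244 on L4440 in the mutant, against 267 and 218 on oma-1 RNAi and 309 and 346 on L4440 in wild type. These values overlap fully between genotypes. npp-20, which encodes the Sec13 homologue of the Y complex, followed with 114 and 155 CPM on oma-1 RNAi and 74.2 and 105 on L4440 in the mutant, against 128 and 155 and then 120.4 and 72.5 in wild type on the same foods. Its level was lowest in 1 mutant and 1 wild-type library, both on L4440. npp-19 encodes Nup35, a component of the inner ring. It had 110.1 and 87.8 CPM on oma-1 RNAi and 158 and 105 on L4440 in the mutant, against 157 and 131 on oma-1 RNAi and 160.5 and 145 on L4440 in wild type. Only 1 of its 4 mutant libraries lay within the wild-type range. The central channel gene npp-1 (Nup54) had 335 and 189 CPM on oma-1 RNAi and 204 and 218 on L4440 in the mutant, against 235.0 and 242 on oma-1 RNAi and 264 and 256 on L4440 in wild type. The spread was wider in the mutant than in wild type, with an SD of 66.5 against 13.1 CPM (n = 4 each).

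The gene with the most reads was npp-10, whose protein is cut into Nup98 and Nup96 and whose product is part of the Y complex and of the channel. It had 489 and 527 CPM on oma-1 RNAi and 488 and 358 on L4440 in the mutant, against 612 and 436 on oma-1 RNAi and 625 and 418 on L4440 in wild type. The genotypes overlap. At the low end stood npp-14, which encodes Nup214 of the cytoplasmic side, at 22.5 ± 4.75 CPM per kb (SD, n = 8). Its libraries had 79.3 and 101 CPM on oma-1 RNAi and 117 and 78.5 on L4440 in the mutant, against 85.5 and 87.2 on oma-1 RNAi and 138 and 94.8 on L4440 in wild type, and the genotypes overlap.

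The series compares the mutant with wild type. In a model fitted to all tested genes, small RNA reads rose in the mutant at npp-26, the 1 member called of 34, and fell at 0. As npp-26 passed the filter only through its reads in the mutant, it could be called there only as higher. The fit without that filter called npp-26 too. The averaged genotype contrast called 23.1% of all tested genes, 11.3% as higher and 11.8% as lower. The other 33 members were not called, and 2 of the 34 had an unadjusted p under 0.05, against 30.9% of tested genes. DESeq2 also called 1 member, where it called 10.9% of the 6854 genes to which it gave an adjusted p. The members' median log2 fold change was -0.07 and that of all tested genes -0.08, while the median absolute change was 0.12 for members and 0.35 for all tested genes. An absolute change over 1 was seen at 1 of the 34 members, npp-26, and at 19.9% of tested genes.

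At npp-26 the libraries separated without overlap. The mutant had 19 and 21 reads on oma-1 RNAi and 26 and 18 on L4440, against 2 and 3 reads on oma-1 RNAi and 0 and 0 on L4440 in wild type. In CPM, this was 83.7, 142, 80.4 and 157 in the mutant and 7.12, 11.9, 0 and 0 in wild type in the same order. Pooled over foods, the share of reads was 17.4-fold higher in the mutant (84 against 5 reads, 95% counting interval 7.18 to 55.1), with an adjusted p of 2.47e-07 in edgeR's quasi-likelihood test. The fitted log2 fold change was 5.50 (SE 0.65), a size that depends on how the fit treats the wild-type group at 0 reads. Of all tested genes, 12.3% were higher in all 4 mutant libraries than in any wild-type library.

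The rise of npp-26 was called on each food. On L4440 the mutant had 44 reads and wild type 0, at least 11.2-fold higher at a floor of 3 reads over the wild-type group, which is 8.23 CPM (adjusted p = 3.35e-05, edgeR). On oma-1 RNAi the mutant had 40 reads and wild type 5, a ratio of 10.9 (4.31 to 35.5; adjusted p = 0.000192, edgeR). The symbol npp-26 names a nucleoporin, and no subcomplex is assigned to it here. The gene lies on chromosome IV, 4764748 to 4767839 on the plus strand (WBcel235), with 6 exon blocks of 1477 bases in all. An annotated piRNA gene of 21 bases, 21ur-11429, lies within its exons on the opposite strand. Because the strand setting of the counting is not given, reads of that piRNA cannot be told apart from reads of npp-26. No other counted gene overlaps its exons.

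**Figure D2:**
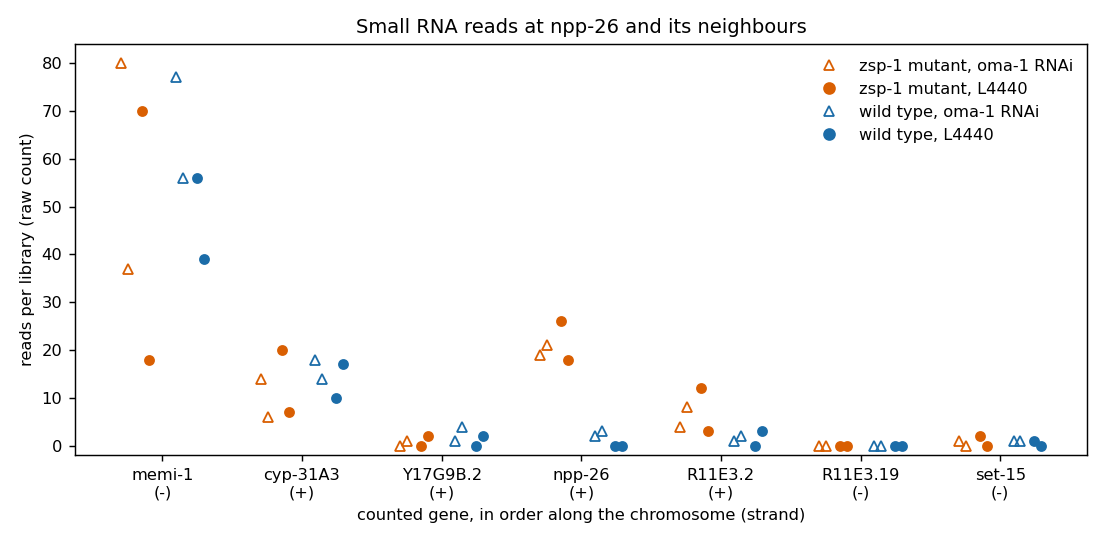
Raw small RNA reads per library (y axis) at npp-26 and the 3 counted genes on either side, in order along the chromosome with strand (x axis). At npp-26 the 4 mutant libraries had 18 to 26 reads and the 4 wild-type libraries 0 to 3, and memi-1 and cyp-31A3 had reads in all 8 libraries of both genotypes.

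Of the 3 counted genes on either side of npp-26, 2 had enough reads to be tested and 0 were called, against 23.1% of all tested genes. The tested genes lie upstream, so the downstream side was not tested. The closest upstream gene, Y17G9B.2, which ends 145 bases before npp-26, had 3 reads in the mutant and 7 in wild type. Further upstream, cyp-31A3 (log2 fold change -0.24, SE 0.33, adjusted p = 0.714, edgeR) and memi-1 (-0.09, SE 0.24, adjusted p = 0.864, edgeR) were not called. The next gene downstream, R11E3.2, begins 4252 bases after npp-26 on the same strand. It had 4, 8, 12 and 3 reads in the mutant and 1, 2, 0 and 3 in wild type, in the order of oma-1 RNAi and L4440 libraries. With 27 against 6 reads it did not pass the filter and was not tested. R11E3.19 was at 0 in every library, and set-15 had 3 reads in each genotype.

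**Figure D3:**
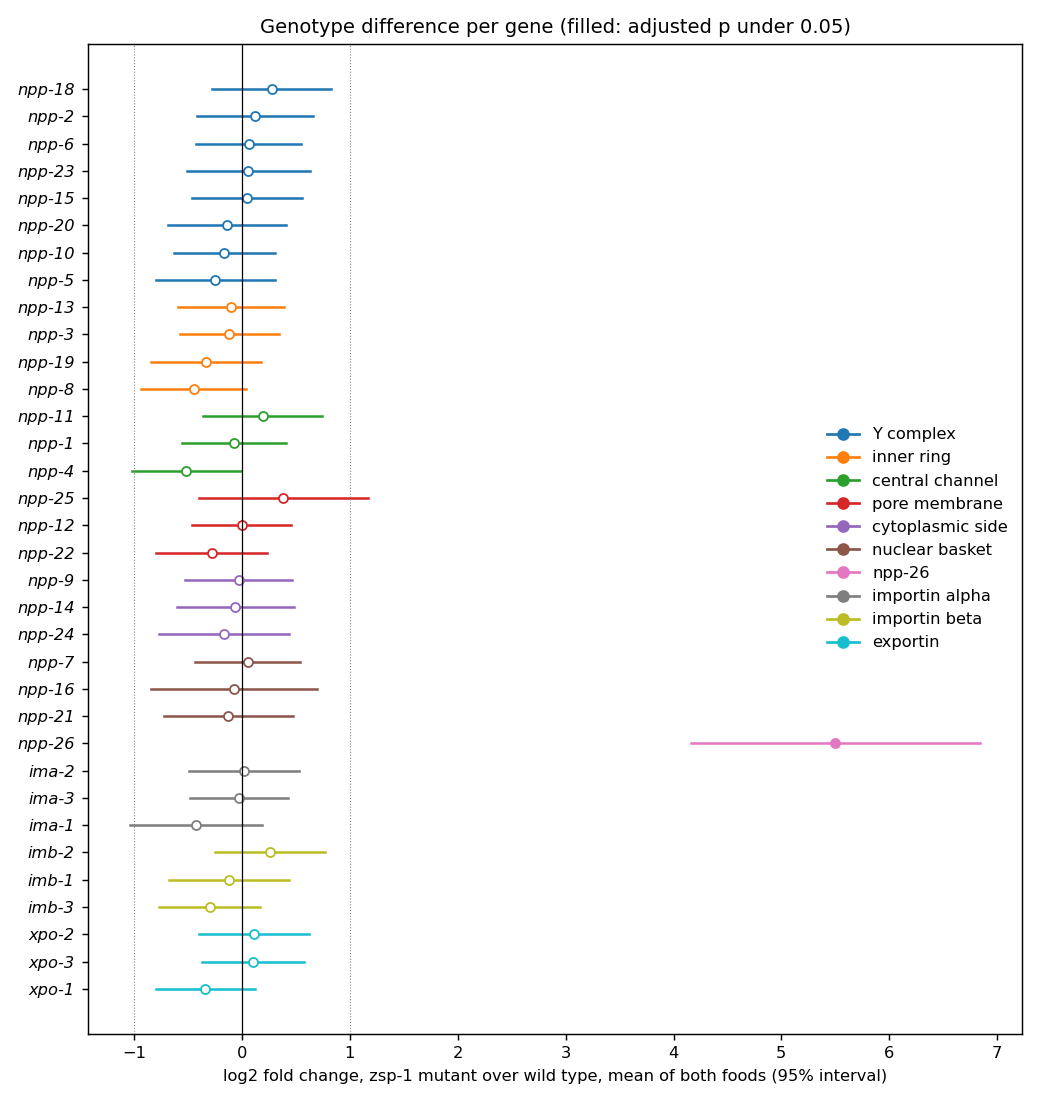
Log2 fold change of the zsp-1 mutant over wild type, mean of both foods, with 95% intervals (x axis) for the 34 genes grouped by role (y axis). Filled points have an adjusted p under 0.05, and dotted lines mark -1 and 1. The filled point is npp-26 at 5.50, and 30 of the other 33 intervals lie between the dotted lines.

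For most of the other members the data bound the size of a difference. In 30 of the 33 genes, or 30 of all 34 members, the 95% interval of the log2 fold change lay within -1 and 1. This was the case for 50.8% of all tested genes. Besides npp-26, the 3 whose interval reached further were ima-1 (-1.04 to 0.19), npp-4 (-1.02 to -0.01) and npp-25 (-0.40 to 1.17). Standard errors ranged from 0.22 to 0.38, so differences that are small beside these errors could not be told apart from 0.

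By role, no subcomplex held a called gene, where 23.1% of all tested genes were called. The 8 genes of the Y complex, the scaffold of the outer rings, had changes of -0.24 to 0.28, with npp-5 (Nup107) lowest and npp-18 (Seh1) highest. Between them stood npp-15 (Nup133) at 0.05, npp-23 (Nup43) at 0.06, npp-6 (Nup160) at 0.06 and npp-2 (Nup85) at 0.12, with SEs of 0.24 to 0.28, and npp-10 at -0.16 and npp-20 at -0.14. The 4 inner ring genes had negative values, from -0.45 to -0.10, and 0 of 4 passed. npp-3 (Nup205) had 75.1 ± 6.39 CPM per kb in the mutant and 81.3 ± 17.3 in wild type (SD, n = 4 each), and npp-13 (Nup93) had 43.9 ± 7.50 and 46.5 ± 2.38 on the same scale. At npp-8, the Nup155 gene and the lowest of them, the mutant had 238 and 162 CPM on oma-1 RNAi and 223 and 244 on L4440, against 271 and 293 on oma-1 RNAi and 241 and 379 on L4440 in wild type. The difference was -0.45 (SE 0.24, adjusted p = 0.212, edgeR), and the highest mutant library exceeded the lowest wild-type one.

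The central channel holds phenylalanine-glycine repeats of several nucleoporins, which bind transport receptors. One of the 3 genes grouped here under that role, npp-4, homologous to Nup58, was the member nearest to a call besides npp-26. The mutant had 114 and 115 CPM on oma-1 RNAi and 98.9 and 69.8 on L4440, against 121 and 143 on oma-1 RNAi and 172 and 145 on L4440 in wild type. All 4 mutant libraries lay below all 4 wild-type libraries, as for 12.3% of tested genes. The difference was -0.51 (SE 0.25) with an unadjusted p of 0.0478 and an adjusted p of 0.155 (edgeR), and so did not pass. The other channel genes had -0.07 (npp-1) and 0.19 (npp-11, Nup62).

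The 3 genes of the pore membrane ranged from -0.28 (npp-22, the Ndc1 homologue) to 0.39 (npp-25), and npp-12, the gp210 gene, had 33.5 CPM per kb in each genotype, with SDs of 3.99 in the mutant and 3.37 in wild type (n = 4 each). On the cytoplasmic side npp-9 (Nup358), npp-14 and npp-24 (Nup88) had -0.17 to -0.03. In the nuclear basket npp-7 (Nup153), npp-16 (Nup50) and npp-21 (TPR) had -0.12 to 0.05. npp-16 varied widely, at 39.4 ± 20.8 CPM per kb in the mutant and 36.9 ± 7.53 in wild type (SD, n = 4 each).

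Transport receptors likewise gave no call, where 23.1% of all tested genes were called. Importin alpha binds the nuclear localisation signal and importin beta docks the complex at the pore. ima-1 had 48.4 and 60.8 CPM on oma-1 RNAi and 102 and 52.3 on L4440 in the mutant, against 110.4 and 83.2 on oma-1 RNAi and 74.5 and 94.8 on L4440 in wild type. One mutant library, replicate 1 on L4440, stood above 3 of the wild-type libraries, and the other 3 mutant libraries lay below all of them. The difference was -0.42 (SE 0.30, adjusted p = 0.392, edgeR), whereas ima-2 and ima-3 had 0.02 and -0.03. In the importin beta family, imb-1, the importin beta gene itself, had -0.12, imb-2 (transportin) 0.26 and imb-3 -0.30.

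Among the exportins, xpo-1 encodes CRM1, which carries proteins with a nuclear export signal. It had 286 and 223 CPM on oma-1 RNAi and 259.7 and 227 on L4440 in the mutant, against 331 and 353 on oma-1 RNAi and 275 and 318 on L4440 in wild type. Only the highest mutant library exceeded the lowest wild-type library. The difference was -0.34 (SE 0.22, adjusted p = 0.347, edgeR). xpo-2, the homologue of CAS, which returns importin alpha to the cytoplasm, had 0.11 (SE 0.25), and xpo-3, the exportin of transfer RNA, had 0.10 (SE 0.23). Reads of xpo-1 are uncertain over 160 bases where its exons overlap those of genes on the opposite strand, and 150 bases of imb-3 overlap a gene on its own strand. These are the largest such overlaps with counted genes, which occur at 9 members on the opposite and 3 on the same strand. Annotated non-coding RNA genes on the same strand also overlap npp-10 over 219 bases and npp-8 over 143 and 93.

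**Figure D4:**
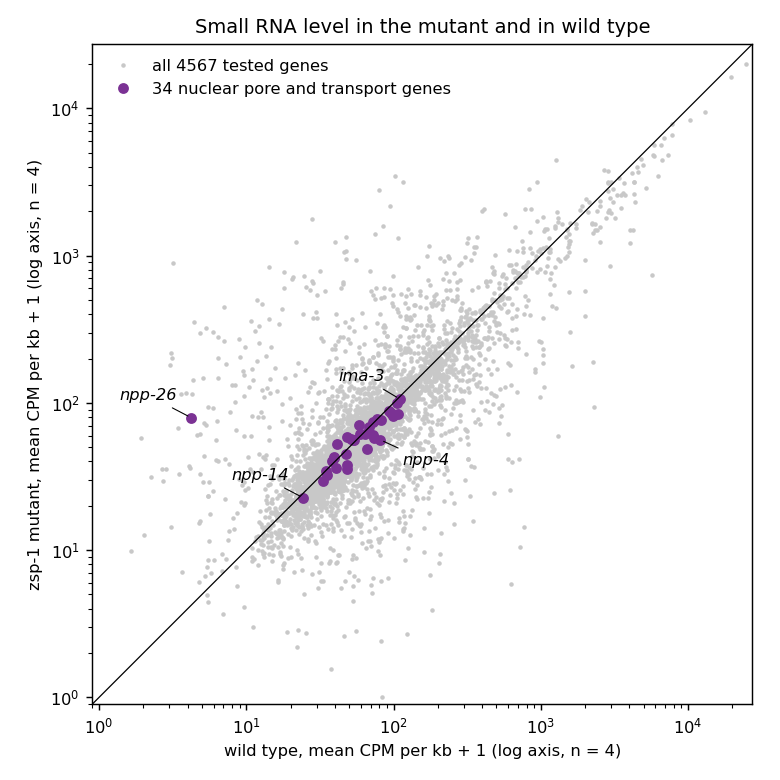
Mean CPM per kb plus 1 in wild type (x axis) and in the zsp-1 mutant (y axis), both log axes, n = 4 libraries each; grey points are the 4567 tested genes, purple points the 34 members, and the line marks equal levels. All purple points but npp-26 sit along the line, between npp-14 at the low and ima-3 at the high end.

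The genotype contrasts on single foods gave the same count. On L4440, 1 of 34 members rose and 0 fell, where 16.4% of tested genes were called, 8.74% as higher and 7.66% as lower, and 2 members had an unadjusted p under 0.05, against 24.2% of tested genes. On oma-1 RNAi, 1 of 34 rose and 0 fell, where 15.7% of tested genes were called, 8.36% as higher and 7.38% as lower, and 1 member had an unadjusted p under 0.05, against 22.4% of tested genes. The called member was npp-26 in both. Apart from it, values on L4440 ran from -0.83 (npp-4, SE 0.36, adjusted p = 0.133, edgeR) to 0.49 (npp-25), and on oma-1 RNAi from -0.85 (ima-1, SE 0.42, adjusted p = 0.243, edgeR) to 0.54 (npp-18).

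Feeding of oma-1 double-stranded RNA was not followed by a called change at any member. In the mutant 0 of 34 were called (edgeR, and 0 with an unadjusted p under 0.05, against 2.82% of tested genes), where 0.0438% of tested genes were called, and DESeq2 called 0. In wild type 0 of 34 were called (edgeR, and 1 with an unadjusted p under 0.05, against 2.96% of tested genes), where 0.0438% of tested genes were called, and DESeq2 called 0. The 1 gene was npp-26, with 2 and 3 reads on oma-1 RNAi and 0 and 0 on L4440 in wild type (unadjusted p = 0.0375, adjusted p = 0.999, edgeR). In the mutant npp-26 had 40 reads on oma-1 RNAi and 44 on L4440, a ratio of 1.08 (95% counting interval 0.688 to 1.70). Leaving npp-26 aside, log2 fold changes ran from -0.66 (ima-1) to 0.73 (npp-18) in the mutant and from -0.71 (npp-5) to 0.55 (npp-20) in wild type.

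The difference between the genotype effects on oma-1 RNAi and on L4440 was tested as an interaction, which called 0 of 34 members (edgeR, with 1 at an unadjusted p under 0.05, against 2.47% of tested genes) and 0.0% of tested genes. DESeq2 called 0. The 1 gene was again npp-26 (unadjusted p = 0.044, adjusted p = 0.9998, edgeR), which rests on the 5 wild-type reads. Among the other members the values ran from -0.85 (ima-1, 95% interval -2.08 to 0.37) to 0.91 (npp-5, -0.20 to 2.02). For none of the 33 did the interval lie within -1 and 1, so differences between foods of that size remain possible.

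Further genes of the pathway were read in the averaged genotype contrast. Of the 5 genes of the Ran cycle, 0 were called in the main fit, against 23.1% of all tested genes, with a median of -0.35. The lowest p in this contrast was at ran-4, the homologue of NTF2, which imports Ran. It had 42 and 45 reads on oma-1 RNAi and 69 and 39 on L4440 in the mutant, against 81 and 118 on oma-1 RNAi and 62 and 69 on L4440 in wild type, or 261 ± 73.4 and 374 ± 74.2 CPM (SD, n = 4 each). The difference was -0.56 (SE 0.25, adjusted p = 0.119, edgeR). It passed once replicate number was fitted as a block (-0.55, SE 0.16, adjusted p = 0.00676) and with scaling by library totals (-0.69, adjusted p = 0.0317). Over all tested genes the block called 29.8% and library totals 25.2%. DESeq2 and the fit without the filter did not call ran-4. On oma-1 RNAi alone, ran-1 had -1.13 (SE 0.40, adjusted p = 0.0558, edgeR) and ran-3 -1.11 (SE 0.47, adjusted p = 0.137, edgeR). On L4440 ran-1 and ran-3 had 0.02 and 0.42. The other Ran cycle genes had -0.65 (ran-4), 0.49 (ran-2) and 0.35 (ran-5) on oma-1 RNAi.

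Of 15 genes of messenger RNA export 9 were tested and 0 were called in the main fit, against 23.1% of all tested genes, with a median of 0.18. The nearest was nxf-1, which encodes the principal export receptor of messenger RNA. It had 62 and 30 reads on oma-1 RNAi and 60 and 25 on L4440 in the mutant, against 54 and 40 on oma-1 RNAi and 23 and 16 on L4440 in wild type. As CPM this was 219.8 ± 37.9 in the mutant and 143 ± 43.6 in wild type (SD, n = 4 each), a difference of 0.65 (SE 0.24, adjusted p = 0.0561, edgeR). Over all tested genes the replicate block called 29.8%. DESeq2, scaling by library totals and the fit without the filter did not call nxf-1. With the replicate block it passed (0.62, SE 0.20, adjusted p = 0.0124), as it did on leaving out wild-type replicate 1 on L4440 (0.83, adjusted p = 0.0267) or mutant replicate 2 on oma-1 RNAi (0.77, adjusted p = 0.0472). Without the wild-type library the export gene thoc-7 passed too, so that 2 of 11 tested genes of the list were called there, against 20.5% of all tested genes.

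Of 13 genes of the nuclear envelope and lamina 9 were tested, with a median of 0.01 and 0 calls, against 23.1% of all tested genes. The lowest p was at mel-28, the ELYS homologue that starts pore assembly on chromatin, with 399 ± 90.1 CPM in the mutant and 314 ± 49.9 in wild type (SD, n = 4 each; log2 0.36, SE 0.23, adjusted p = 0.341, edgeR). Some pore and transport genes bear other names in the count files. RefSeq, on the same assembly, names C49H3.9 npp-27 and C35A5.8 xpo-7. C49H3.9 had 73 reads in the mutant and 65 in wild type (log2 0.30, SE 0.29), and C35A5.8 had 81 and 91 (-0.10, SE 0.27), and neither was called. rae-1, a further nucleoporin gene, had 25 reads in the mutant and 29 in wild type and was not tested.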

How the data were processed

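Small RNAs of about 18 to 35 nt were gel-selected and cloned by a protocol independent of the 5′ monophosphate, per the labels' protocols. The authors' deposited files hold raw read counts per gene, not normalised, with exon lengths, per the file headers. The submitters' processing notes name cutadapt 1.14, TopHat2 2.1.1, featureCounts 1.6.0 and build WBcel235. The sources used here give neither the strand setting nor the treatment of multiply mapping reads.

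The counts were tested with edgeR 4.0.16 under R 4.3.3: filterByExpr (minimum count 10), TMM, a quasi-likelihood fit of 4 group means to 8 libraries (4 residual degrees of freedom), and 6 contrasts. Benjamini-Hochberg adjustment ran over all 4567 tested genes, and a gene was called at an adjusted p under 0.05. The SE was taken as the size of the log2 fold change divided by the root of the F statistic. The code was tested on simulated data. Alternatives were DESeq2 1.42.0, other filters and scaling, a replicate block, smaller fits and leaving out each library. Intervals and floors of read ratios cover counting error only.

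Members and lists were chosen with earlier results of these data known. Every member is named, with values in each library for those called, the 4 nearest to a call, the 5 highest and the lowest per kb. From each pathway list, called genes and the one with the lowest p are named. C49H3.9, C35A5.8, rae-1, the neighbours of npp-26 and the values of the Ran cycle genes on single foods were added after values were seen. Annotation was Ensembl release 115, which matched 34 of 34 names.

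Same-numbered replicates deviated together from their group means in all 6 pairs of groups (Pearson's r 0.171 to 0.347 across genes, threshold 0.1). The replicate numbers were therefore taken to pair the libraries, on the data alone, since no label states it. The main fit holds no term for this pairing, so its SEs, intervals and p-values are unpaired. The pairing enters the paired shares of reads and the replicate block, which is an alternative fit. In the averaged genotype contrast the block called 29.8% of tested genes, against 23.1% in the main fit.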

Additional observations from a re-analysis of the deposited data

How the results depend on the processing

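The call of npp-26 held in the averaged genotype contrast in all 12 alternatives that tested the gene, with log2 fold changes of 5.24 to 5.72 and a highest adjusted p of 2.67e-06. These fits reuse the same libraries, and npp-26 passed the low-count filter only through its mutant reads, so the agreement is not independent support. On L4440 the 13 alternatives gave a highest adjusted p of 0.00063 and on oma-1 RNAi 0.00543. The filter with a minimum count of 30 left 18 members and removed npp-26, which was therefore not tested. Under that filter 0 members were called in the averaged contrast, 0 on L4440 and 0 on oma-1 RNAi. Of the 1898 genes it kept, 34.6%, 27.2% and 26.8% were called in the same order. The other 33 members gave 0 calls in any comparison under any alternative that tested them. In the averaged contrast the alternatives called 9.73% (no filter on low counts) to 34.6% (minimum count of 30) of genes with an adjusted p. With the replicate block, 1 member was called in the averaged contrast, 1 on each food, and 0 in the RNAi responses and the interaction. It called 29.8% of tested genes in the averaged contrast, 22.4% on L4440 and 21.8% on oma-1 RNAi, and moved the averaged value of the other 33 members by at most 0.06 (log2). Over all genes the block raised the calls to 24 for RNAi in wild type and 12 in the mutant, against 2 each without it, and in wild type the count was 26 without the filter and 75 without wild-type replicate 2 on L4440, with 0 members in each. Scaling by library totals moved the median log2 fold change of all genes to -0.19, against -0.08 with TMM, and that of the members to -0.18, so small negative values depend on the scaling. The members' mean share of reads stayed within its SD when only tested genes were counted. ran-4 also passed on oma-1 RNAi with the block (-0.64, adjusted p = 0.0363), and nxf-1 passed with the stricter filter (0.68, adjusted p = 0.0317). The call on L4440 rests on 44 and 0 reads.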

Other observations

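The members' share of reads differed between the replicate numbers of the titles. It was 0.630% in replicate 1 and 0.470% in replicate 2 of the mutant on oma-1 RNAi, 0.567 and 0.460% of the mutant on L4440, 0.669 and 0.506% of wild type on oma-1 RNAi, and 0.628 and 0.589% of wild type on L4440. Replicate 1 was thus the higher library in each of the 4 groups. In TMM-scaled CPM, 5 of the 34 members were higher in replicate 1 in all 4 groups, against 12.6% of tested genes. The gap between replicates of a group was up to 0.163 percentage points. Once that number was fitted as a block, the averaged genotype values of the 33 members other than npp-26 moved by at most 0.06 on the log2 scale.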
